A study of Mus musculus with 10 samples.

Results

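The subunits of the constitutive proteasome and its activators were followed in mouse 3T3-L1 adipocytes treated with the conjugated linoleic acid cis-9,trans-11 CLA or with linoleic acid (LA). Members were all genes whose only symbol on a probe set begins with Psma, Psmb, Psmc, Psmd or Psme and a digit, without the inducible subunits Psmb8, Psmb9 and Psmb10. The rule took 39 genes with 84 probe sets, out of 18193 genes with 34945 probe sets of a single symbol. Of the 39 genes, 37 were bright enough to be tested among 10916 genes. The remaining members were Psma8, the alpha subunit known from the testis, and Psmb11, the beta subunit known from the thymus, and both lay at the detection floor (3.84 on the log2 scale) on all 10 arrays. Psme2 was not a member because its probe set carries a second symbol.

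The study placed RNA from 1 cell line on Affymetrix arrays, 1 array a sample, at 8 h and 12 h. CLA was given to 1 culture at 8 h and 1 culture at 12 h, both labelled replicate 1, and LA to 4 cultures at each time, labelled replicates 1 to 4. LA was the control, so every culture received a fatty acid and none was untreated. 3T3-L1 is an embryonic fibroblast line that is differentiated into fat cells in culture, and the labels call the samples adipocytes. The labels call the replicates biological without saying which cultures were grown together, so the p-values measure only the spread between these arrays, some of which may be technical.

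The proteasome is the protease that breaks down proteins tagged with ubiquitin. Its 20S core is a barrel of stacked rings, in which the outer alpha rings form the gate and the inner beta rings hold the active sites. The 19S cap binds, unfolds and feeds in the substrate by means of a ring of ATPases and a lid and base of non-ATPase subunits, while the activators of the Psme family can take the place of the cap. In fat cells the proteasome is known for turning over regulators of adipogenesis and lipid metabolism.

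The samples carried the markers of their label. Of 7 white adipocyte markers, 5 had a tested probe set, and their summed intensity was 25200 to 28900 on the CLA arrays, 27100 to 28300 on the LA arrays numbered 1 and 20700 to 28400 on the other LA arrays. The 9 preadipocyte and fibroblast markers summed to 6680 to 13500, 8380 to 13600 and 13500 to 30500 in the same order. All 9 were lower with CLA (median -0.86 on the log2 scale) and in LA replicate 1 (median -0.90), and none was called. With the replicate number as a block 1 of the 9 was higher with CLA over both times (median -0.11). By time, 0 were higher at 8 h (median -0.74) and 7 at 12 h (median 0.39) with the block. The 3 tested of 4 cycling-cell markers summed to 242 to 270, 233 to 234 and 344 to 1090. The 5 macrophage markers summed to 195 to 294, 209 to 258 and 109 to 364, with Itgam and Lyz2 at the floor on every array. Of the 3 tested macrophage markers, 2 were higher in LA replicate 1, Cd68 by 0.54 and Adgre1 by 1.94, and Csf1r was at -0.24. These values set 1 replicate number against 3. The 4 brown fat and muscle markers summed to 95.5 to 118, 102 to 126 and 57.1 to 102, with Ucp1 and Myh1 at the floor. Before scaling, the 4 arrays numbered 1 were dimmer, with a 75th percentile of intensity between 26.4 and 39.5 against 54.4 to 76.8 on the 6 others. The ratio of the 3' to the 5' control probe sets of beta-actin was 5.67 on the array of LA replicate 4 at 12 h and 1.45 to 2.60 on the rest. The same ratio for Gapdh was 1.42 on that array and 0.81 to 0.919 on the rest. What these differences contribute to the results below was not tested. In bulk RNA, fewer cells of a type and less RNA per cell cannot be told apart.

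Levels below are log2 of the quantile-normalized intensity of the gene's brightest probe set. They are compared for 1 gene between arrays and never between genes, since probe sets differ in brightness. No value of the 37 tested members was at the floor. The members varied less than most genes: the median standard deviation (SD) over the LA arrays was 0.32 (0.16 to 1.06) against 0.55 over all genes tested. Their probe sets were also brighter, with a median value per array of 9.22 to 9.59 against 6.33 to 6.42 over all genes. What brightness contributes to the smaller spread, and to the narrower intervals below, was not tested. The median range between the LA means of the 4 numbers was 0.71 (1.08 over all genes). The median size of the change between 8 h and 12 h within a number, taken without its sign, was 0.14 (0.23 over all genes). Over all 10 arrays the range ran from 0.36 for Psmb1, a beta subunit without an active site, to 3.12 for Psme4, the activator also called PA200.

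**Figure D1:**
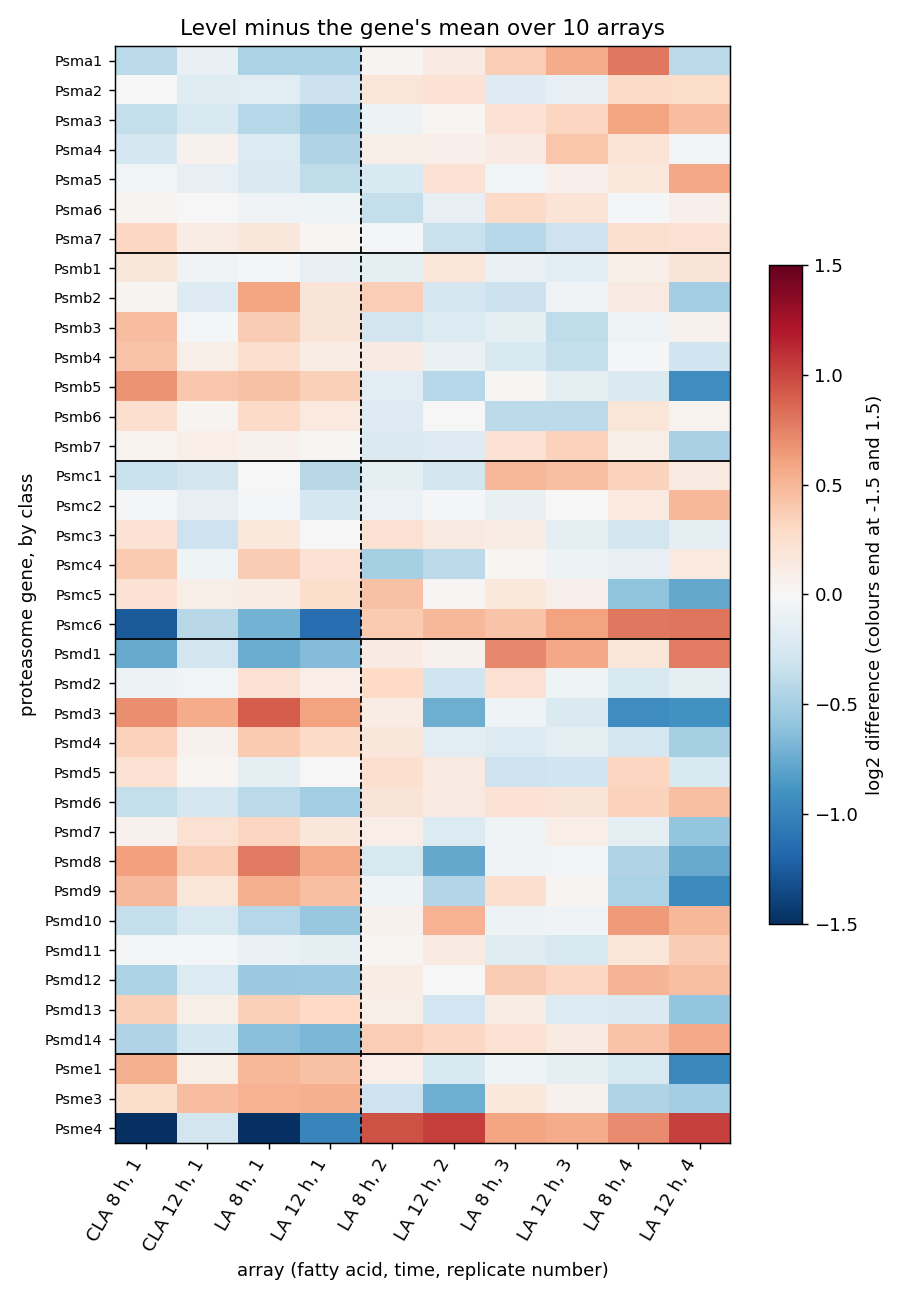
Heat map of the 37 tested proteasome genes (rows, grouped by class) on the 10 arrays (columns, ordered by replicate number). Colour gives the log2 level minus the gene's mean over the 10 arrays. The 4 arrays numbered 1, left of the dashed line, are low for Psme4 and Psmc6 and high for Psmd3, Psmd8 and Psmb5, with CLA and with LA.

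The first comparison asked which subunits differed between CLA and LA. No proteasome gene passed the test, and the members lay evenly on both sides of 0. Across both times 19 members were higher and 18 lower with CLA, with a median difference of 0.02 on the log2 scale against 0.15 over all genes tested. This split moved with the scaling, to 12 higher on the values as deposited (all genes -0.22) and 29 higher with each array centred on its median (all genes 0.23). limma called none of the 37 members and 0% of all genes at a Benjamini-Hochberg adjusted p under 0.05. At an unadjusted p under 0.05 there were 0 members, beside 9.12% of all genes. The limits of this count are wide: only 21 of 37 members (56.8%; 24.4% of all genes) had a 95% interval that lay within 2-fold in both directions.

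Among the 7 alpha subunits, 2 were higher and 5 lower with CLA, with a median difference of -0.11, but all 7 were higher when the arrays were centred on their medians. Psma1 had the widest range over the arrays of this ring. Its level was 10.76 with CLA and 10.69, 11.21, 11.54 and 11.96 on LA arrays 1 to 4 at 8 h, then 11.05 with CLA and 10.69, 11.29, 11.72 and 10.76 with LA at 12 h. The CLA arrays lay inside the range of the LA arrays, and the difference was -0.33 (SE 0.35, adjusted p = 0.592 in limma). Psma5 read 10.01 with CLA and 9.83, 9.82, 10.01 and 10.20 with LA at 8 h, and 9.92 with CLA and 9.66, 10.26, 10.12 and 10.63 with LA at 12 h, again with overlap. The differences of Psma2, Psma3, Psma4, Psma6 and Psma7 were between -0.37 and 0.26.

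Of the 7 beta subunits, 6 were higher and 1 lower with CLA, with a median of 0.18, and at least 6 were higher on all 3 scalings. With the replicate number as a block, however, 4 were higher and 3 lower (median 0.04). The active sites are those of Psmb5, which cuts after hydrophobic residues, Psmb6, which cuts after acidic ones, and Psmb7, which cuts after basic ones. Psmb5 read 10.52 with CLA and 10.29, 9.68, 9.87 and 9.63 with LA at 8 h, and 10.26 with CLA and 10.21, 9.42, 9.72 and 8.92 with LA at 12 h. Both CLA arrays were above every LA array of their time, with LA replicate 1 the nearest, and the difference of 0.68 had an interval of -0.01 to 1.36 (SE 0.31, adjusted p = 0.457 in limma). Psmb6 read 10.05 with CLA and 10.09, 9.61, 9.41 and 9.98 with LA at 8 h, and 9.84 with CLA and 9.95, 9.80, 9.41 and 9.85 with LA at 12 h. Psmb7 read 11.01 with CLA and 11.02, 10.74, 11.18 and 11.05 with LA at 8 h, and 11.06 with CLA and 10.98, 10.77, 11.31 and 10.47 with LA at 12 h. Both genes overlapped between CLA and LA, and their differences were 0.18 (interval -0.36 to 0.72) and 0.10 (interval -0.43 to 0.62). Of the subunits without an active site, Psmb2 read 8.73 with CLA and 9.28, 9.05, 8.36 and 8.82 with LA at 8 h, and 8.49 with CLA and 8.88, 8.43, 8.63 and 8.17 with LA at 12 h. The groups overlapped for Psmb2, and Psmb1, Psmb3 and Psmb4 differed by 0.07 to 0.32.

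In the ATPase ring, 2 of 6 genes were higher and 4 lower with CLA, against 0 higher on the values as deposited and 4 higher with centred arrays. Psmc6 stood out by its range of 2.06, with 7.39 with CLA and 7.94, 9.04, 9.08 and 9.44 with LA at 8 h, and 8.23 with CLA and 7.51, 9.14, 9.25 and 9.45 with LA at 12 h. The CLA arrays and LA replicate 1 were the low ones at both times, and the difference of -1.04 had an interval of -2.15 to 0.07 (SE 0.51, adjusted p = 0.457 in limma). Psmc3 read 9.44 with CLA and 9.38, 9.45, 9.33 and 8.94 with LA at 8 h, and 8.91 with CLA and 9.21, 9.35, 9.09 and 9.09 with LA at 12 h. Psmc4 read 9.21 with CLA and 9.20, 8.32, 8.85 and 8.70 with LA at 8 h, and 8.75 with CLA and 9.03, 8.42, 8.74 and 8.96 with LA at 12 h. At 8 h the CLA array of both genes lay at the upper end of the LA arrays, and at 12 h it lay below all LA arrays for Psmc3 and among them for Psmc4. Psmc1, Psmc2 and Psmc5 differed by -0.37 to 0.19.

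The 14 non-ATPase members include scaffolds of the cap (Psmd1 and Psmd2), the ubiquitin receptor Psmd4, the lid subunits Psmd3, Psmd6, Psmd8, Psmd11, Psmd12 and Psmd13, the deubiquitinase Psmd14 with its partner Psmd7, and the chaperones of cap assembly Psmd5, Psmd9 and Psmd10. With CLA 7 were higher and 7 lower, against 3 higher on the values as deposited and 9 higher with centred arrays. Psmd3 read 9.31 with CLA and 9.52, 8.73, 8.55 and 7.68 with LA at 8 h, and 9.17 with CLA and 9.22, 7.88, 8.40 and 7.71 with LA at 12 h. Psmd8 read 10.06 with CLA and 10.22, 9.21, 9.39 and 8.99 with LA at 8 h, and 9.81 with CLA and 10, 8.68, 9.40 and 8.69 with LA at 12 h. For both lid subunits the CLA array was just below LA replicate 1 and above the other LA arrays at each time. Their differences were 0.78 (interval -0.23 to 1.79, adjusted p = 0.457 in limma) and 0.61 (interval -0.24 to 1.46, adjusted p = 0.458). Psmd9 (0.42), Psmd13 (0.28), Psmd4 (0.25), Psmd7 (0.19) and Psmd5 (0.17) were also higher. Psmd1 (-0.64), Psmd14 (-0.45), Psmd12 (-0.43), Psmd6 (-0.38), Psmd10 (-0.37), Psmd2 (-0.07) and Psmd11 (-0.03) were lower.

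Of the activators, Psme4, a nuclear cap known for the breakdown of acetylated histones, had the largest difference of all members. It read 5.84 with CLA and 6.40, 8.88, 8.52 and 8.63 with LA at 8 h, and 7.65 with CLA and 6.94, 8.96, 8.48 and 8.95 with LA at 12 h. The 4 arrays numbered 1 were all low, and the other 6 lay between 8.48 and 8.96 without overlap with them. The difference was -1.47 (SE 0.69, interval -2.97 to 0.03, adjusted p = 0.457 in limma). Psme1, an interferon-induced activator subunit, differed by 0.38 and Psme3, a nuclear activator, by 0.45.

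**Figure D2:**
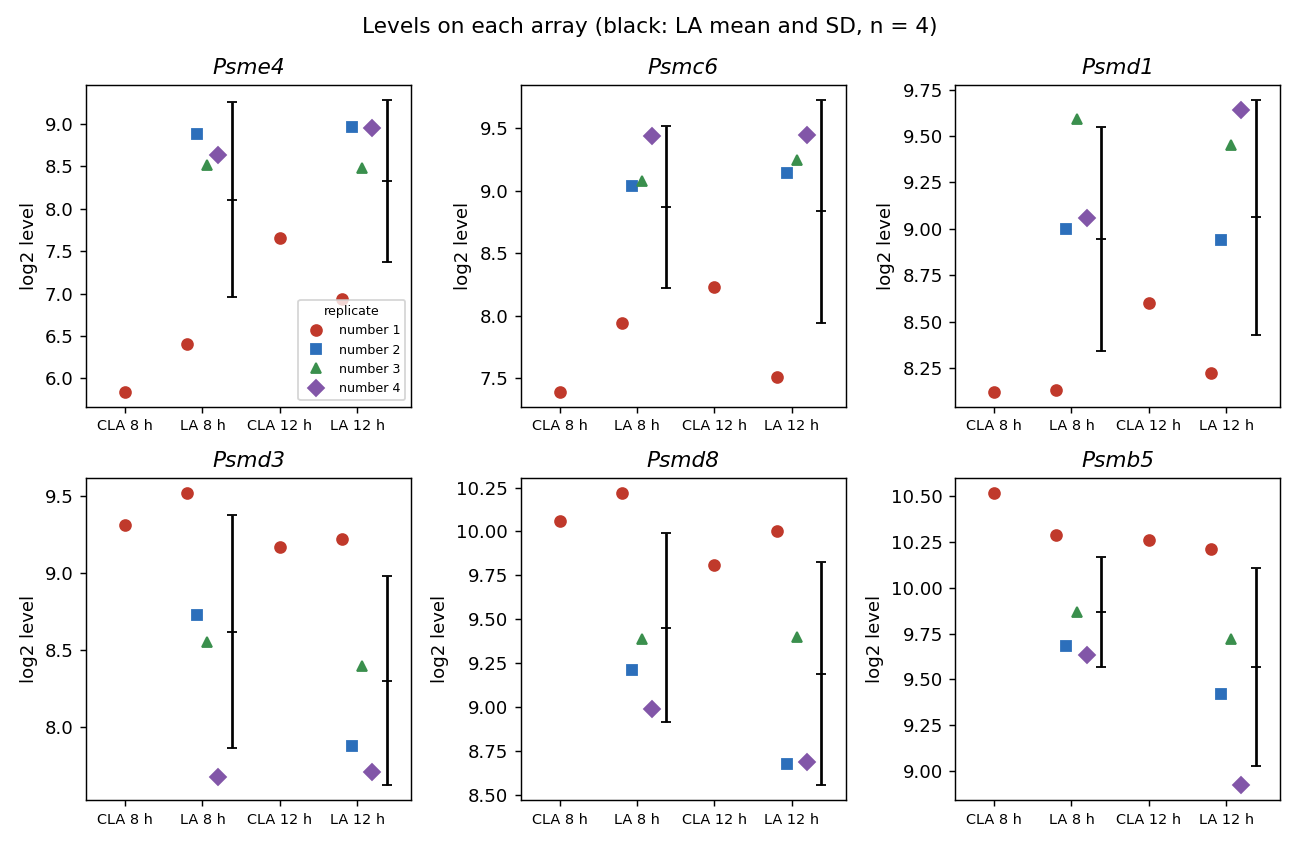
Log2 levels of 6 proteasome genes on each array, by fatty acid and time, with symbol and colour for the replicate number and black bars for the LA mean and SD (n = 4). In each gene the CLA point and LA replicate 1 are both above or both below the 3 remaining LA points, and the vertical axes differ between genes.

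At 8 h alone, with 1 CLA array, 22 members were higher and 15 lower (median 0.04, all genes 0.16), and at 12 h 18 were higher and 19 lower (median -0.03, all genes 0.09). The lone CLA array was assumed to vary like the LA arrays. No member was called at either time, and neither was any gene (0% of all genes each). At an unadjusted p under 0.05, 1 member was left at 8 h, beside 4.47% of all genes, and 0 at 12 h, beside 1.7%. The member at 8 h was Psme4, with -2.27 (SE 0.98, unadjusted p = 0.0449, adjusted p = 0.743 in limma). The change of the CLA difference from 8 h to 12 h was tested as an interaction, and it called 0 members (0% of all genes), with 0 members at an unadjusted p under 0.05 against 1.06% of all genes. The largest values were 1.59 for Psme4 and 0.88 for Psmc6 upward and -0.48 for Psmc4 and -0.43 for Psmc3 downward (adjusted p = 1 each in limma).

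Both CLA arrays carry the replicate number 1, so CLA against LA and number 1 against numbers 2 to 4 overlap in the design. With the number as a block, which compares the CLA arrays with LA replicate 1, the members came closer together. Their differences ran from -0.47 (Psmb2) to 0.30 (Psmd14), with 21 higher, 16 lower and a median of 0.07 (0.00 over all genes), and the fit called 0 members and 0% of all genes. At an unadjusted p under 0.05 it held 0 members over both times (4.53% of all genes), 1 at 8 h (5.93%), 1 at 12 h (5.83%) and 2 in the interaction, Psme4 and Psmc6 (6.68%). A 95% interval within 2-fold was found for 36 of 37 members (97.3%), against 66.2% of all genes. Psme4 was then at 0.08 (interval -0.81 to 0.97), Psmc6 at 0.09 (-0.52 to 0.69), Psmb5 at 0.14 (-0.28 to 0.57), Psmd3 at -0.13 (-0.64 to 0.37) and Psmd8 at -0.18 (-0.57 to 0.22). The 7 alpha subunits were all higher, by 0.07 to 0.22, and none of them passed the test. Of the 7 beta subunits 4 were higher and 3 lower, with a median of 0.04. For Psme4 the sides of 0 differed between the hours with the block, with -0.71 at 8 h, 0.87 at 12 h and an interaction of 1.59. Psme4 was called in none of these. The fitted values by hour also use the change from 8 h to 12 h in the other LA replicates. Against LA replicate 1 of the same time alone, Psme4 differed by -0.56 at 8 h and 0.72 at 12 h. The interaction of Psmc6 was 0.88 (adjusted p = 0.65 in limma with the block).

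**Figure D3:**
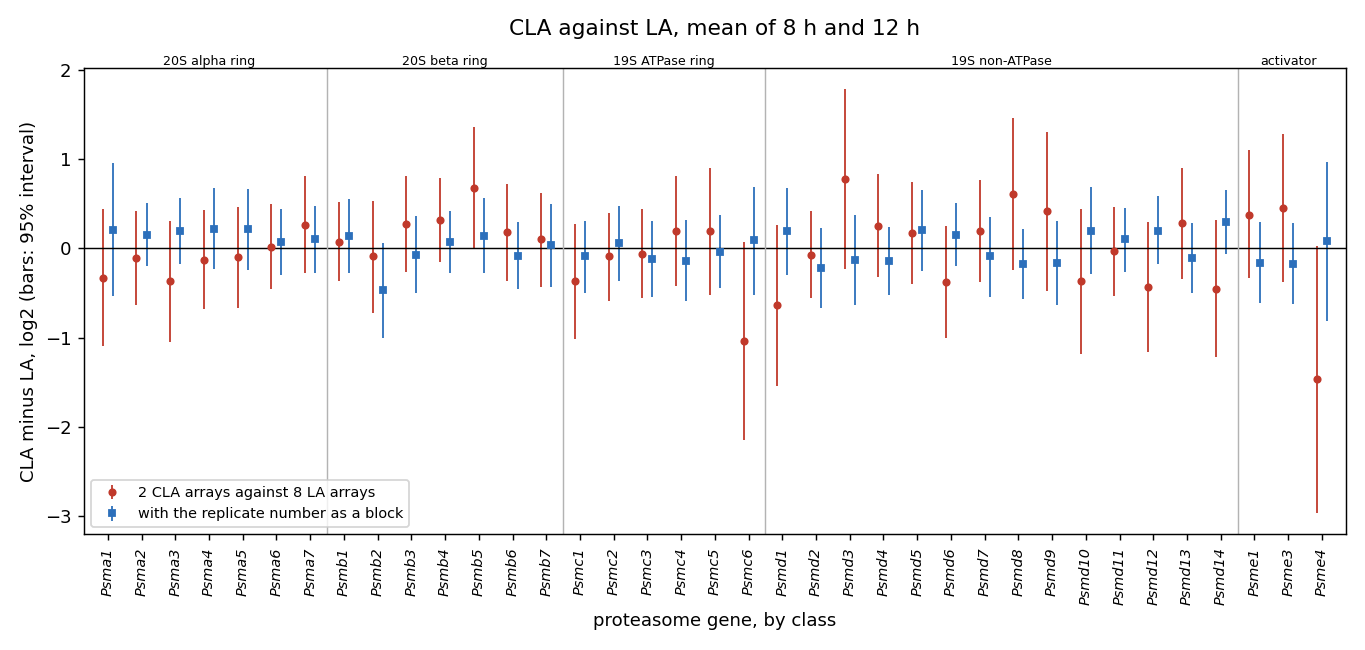
CLA minus LA on the log2 scale for each of the 37 tested proteasome genes, grouped by class, as the mean of 8 h and 12 h. Red circles compare 2 CLA arrays with 8 LA arrays, blue squares add the replicate number as a block, and bars are 95% intervals. With the block the range of the points narrows, and the value moves from -1.47 to 0.08 for Psme4 and from 0.78 to -0.13 for Psmd3.

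Between 8 h and 12 h of LA, with 4 arrays at each time, most members were slightly lower at the later time and none passed the test. There were 9 members higher and 28 lower, with a median of -0.09 against -0.01 over all genes. Without the replicate number as a block, limma called 0 members and 0% of all genes. At an unadjusted p under 0.05 there were then 0 members beside 0.238% of all genes. The differences ran from -0.35 for Psmb2 and -0.32 for Psmd3 to 0.20 for Psma5 and 0.23 for Psme4. Without the block their intervals were -0.95 to 0.25, -1.31 to 0.67, -0.33 to 0.74 and -1.17 to 1.62. By class the medians were -0.01 in the alpha ring, -0.11 in the beta ring, -0.06 in the ATPase ring, -0.14 in the non-ATPase subunits and -0.14 in the activators. Taken pair by pair, the median change was -0.12 in replicate 1, -0.06 in replicate 2, -0.05 in replicate 3 and -0.06 in replicate 4, with 7, 15, 15 and 15 of the 37 members higher at 12 h. No member was higher in all 4 pairs (5.94% of all genes), and 6 of 37 (Psmb4, Psmb5, Psmc1, Psmd9, Psmd13 and Psme1) were lower in all 4 (6.43% of all genes). On the values as deposited 9 members were higher at 12 h, and with centred arrays 4. With the number as a block, which uses the pairing of the LA arrays, limma called 0 members and 0 genes. At an unadjusted p under 0.05 there were then 0 members beside 457 of 10916 genes. With this block all 37 members had a 95% interval within 2-fold (lowest end -0.84, highest end 0.56), against 85.4% of all genes. The largest single change, -1.20 for Psma1, was that of replicate 4, whose 12 h array had the high beta-actin ratio given above.

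**Figure D4:**
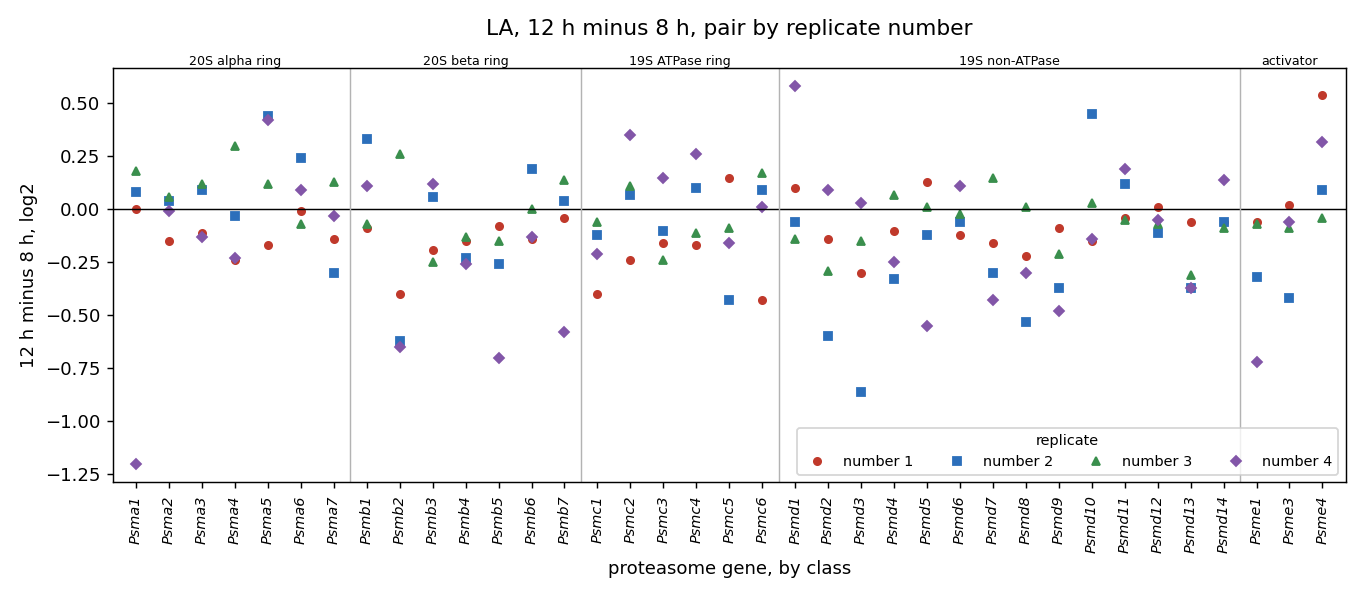
LA at 12 h minus LA at 8 h on the log2 scale for each proteasome gene (grouped by class), with 1 point for each of the 4 replicate numbers. Most points lie within 0.5 of 0, and more of them lie below 0 than above, with Psma1 in replicate 4 at -1.20 the lowest.

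Between LA replicate 1 and LA replicates 2 to 4, Psme4 was the only proteasome gene that passed the test. Here each number was 1 unit, the mean of its 8 h and 12 h arrays, so that 1 stood against 3, and the lone number was assumed to vary like the others. Of the 37 members 19 were higher and 18 lower in replicate 1, with a median of 0.08 against 0.18 over all genes. limma called 1 member, Psme4, which was lower, beside 8.49% of all genes. At an unadjusted p under 0.05 there were 8 members, 2 higher and 6 lower, which is 21.6% of them beside 32.9% of all genes. Both shares were below the background. This comparison uses the same LA arrays as the one with CLA, so the values of the 2 are not independent.

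The LA mean of Psme4 was 6.67 in number 1 and 8.92, 8.50 and 8.79 in numbers 2 to 4. Replicate 1 was 4.20-fold lower, with a difference of -2.07 (SE 0.25, interval -2.83 to -1.32, adjusted p = 0.0402 in limma). The call rested on single arrays and settings: it was lost without LA replicate 1, 3 or 4 at 8 h (adjusted p = 0.056, 0.097 and 0.0733), without LA replicate 2 or 4 at 12 h (0.0748 and 0.083), without a variance trend (0.0744) and with the mean of all probe sets of the gene (-0.94, adjusted p = 0.0965). The difference kept its sign in all of them. Psme4 has 6 probe sets, and the 3 above the floor on every array gave -2.07, -1.74 and -2.04. A dim one at the floor on 8 arrays gave 0.24, and the remaining ones were below the filter.

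Psmc6 had the next largest difference, with LA means of 7.73 in number 1 and 9.09, 9.16 and 9.45 in the others, a difference of -1.51 (SE 0.22, adjusted p = 0.0539 in limma). Its 3 probe sets gave -1.51, -2.86 and -0.41, the last of them at the floor on 6 arrays. The lid and base genes Psmd1 (-1.11), Psmd14 (-1.0), Psmd12 (-0.84) and Psmd6 (-0.71) were the other members with an unadjusted p under 0.05 on the low side, with adjusted p between 0.0838 and 0.126 in limma. On the high side were Psmd3, with LA means of 9.37 against 8.30, 8.47 and 7.69 (1.22, SE 0.40, adjusted p = 0.15 in limma), and Psmd8, with 10.11 against 8.95, 9.40 and 8.84 (1.05, SE 0.30, adjusted p = 0.127). The non-ATPase class thus held genes on both sides, 7 higher and 7 lower.

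By class, 1 of 7 alpha subunits was higher in replicate 1 and 6 were lower (median -0.43), while 6 of 7 beta subunits were higher and 1 lower (median 0.34). On the values as deposited 0 alpha and 1 beta subunits were higher, and with centred arrays 2 and 7. No gene of either ring was called. Psma3 (-0.75) and Psma1 (-0.72) were lowest in the alpha ring and Psmb5 (0.71) and Psmb2 (0.50) highest in the beta ring. The ATPase ring had 3 higher and 3 lower (median -0.06). Of the activators Psme3 (0.83) and Psme1 (0.72) were higher than in the other numbers and Psme4 lower.

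**Figure D5:**
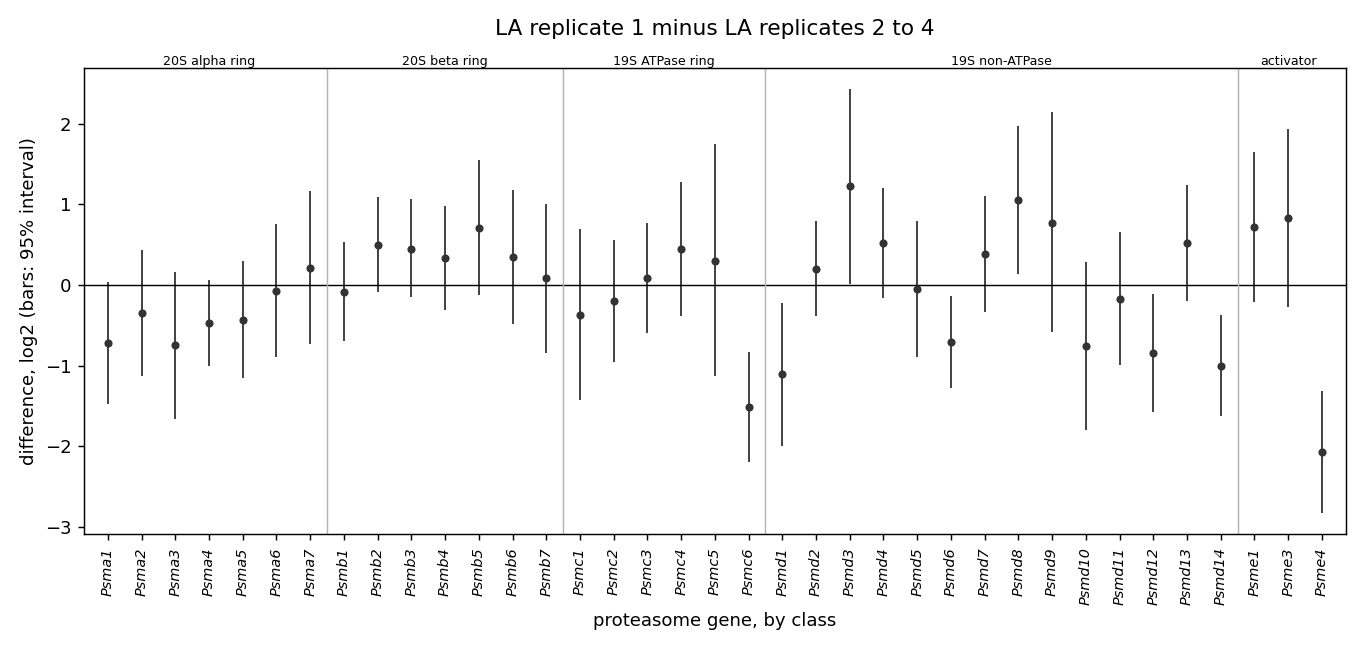
LA replicate 1 minus LA replicates 2 to 4 on the log2 scale for each proteasome gene, grouped by class, with 95% intervals from limma. With this scaling 6 of 7 alpha subunits lie below 0 and 6 of 7 beta subunits above it (1 above on the values as deposited), Psme4 at -2.07 and Psmc6 at -1.51 are the lowest, and Psmd3 at 1.22 and Psmd8 at 1.05 the highest.

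Counting the CLA arrays in, all 4 arrays numbered 1 lay above the 6 others for 4 members (Psmb5, Psmd3, Psmd8 and Psme3; 10.8%) beside 22.5% of all genes. They lay below the 6 others for 8 members (Psma3, Psmc6, Psmd1, Psmd6, Psmd10, Psmd12, Psmd14 and Psme4; 21.6%) beside 17.6% of all genes. For the remaining 25 members the arrays overlapped. The side of 0 depended on the scaling for many members. The median of all genes in LA replicate 1 moved from 0.18 with quantile normalization to -0.53 on the values as deposited and to 0.40 with each array centred on its median, and 5 and 24 members were then higher in place of 19. The sign held on all 3 scalings for 18 members. These were 5 on the high side (Psmb5, Psmd3, Psmd8, Psme1 and Psme3) and 13 on the low side (Psma1, Psma2, Psma3, Psma4, Psma5, Psmc1, Psmc6, Psmd1, Psmd6, Psmd10, Psmd12, Psmd14 and Psme4). The scalings did not move all members alike. From quantile normalization to the values as deposited, Psme3 moved from 0.83 to 0.81, Psmb5 from 0.71 to 0.18 and Psmd9 from 0.77 to -0.14.

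Promoters of 5 members are shown so that their sequence can be set beside their values. They were picked among members whose sign in LA replicate 1 held on every scaling and for which a window was at hand. The picks are the 2 lowest, Psme4 and Psmc6, and the 2 highest, Psmd8 and Psme3. The catalytic subunit Psmb5 was added to them. The windows are the 250 bases before the start of the gene, 5′ to 3′ on the strand of the gene, from RefSeq on GRCm38.p6. They are chr11:30771525-30771774 (+) for Psme4, chr14:45329574-45329823 (+) for Psmc6, chr7:29180674-29180923 (-) for Psmd8, chr11:101315963-101316212 (+) for Psme3 and chr14:54617996-54618245 (-) for Psmb5. Capitals mark matches on either strand to TGACNNNGC, the core of the antioxidant response element that the factors NRF1 and NRF2 are known to bind, or to CCAAT, the box bound by NF-Y.
Psme4: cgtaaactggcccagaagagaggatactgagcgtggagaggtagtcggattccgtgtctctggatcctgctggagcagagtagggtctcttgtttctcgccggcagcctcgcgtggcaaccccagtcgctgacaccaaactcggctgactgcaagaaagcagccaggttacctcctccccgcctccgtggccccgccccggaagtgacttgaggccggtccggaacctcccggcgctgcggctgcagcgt
Psmc6: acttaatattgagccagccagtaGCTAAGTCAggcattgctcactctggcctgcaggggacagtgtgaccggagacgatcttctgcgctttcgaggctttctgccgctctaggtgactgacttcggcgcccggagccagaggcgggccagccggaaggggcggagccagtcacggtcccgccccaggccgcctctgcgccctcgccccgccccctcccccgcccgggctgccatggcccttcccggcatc
Psmd8: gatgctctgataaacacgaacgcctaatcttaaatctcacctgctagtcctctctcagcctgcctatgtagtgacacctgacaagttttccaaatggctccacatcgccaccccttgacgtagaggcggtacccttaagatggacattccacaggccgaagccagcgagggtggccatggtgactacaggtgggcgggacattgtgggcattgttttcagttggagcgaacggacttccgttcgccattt
Psme3: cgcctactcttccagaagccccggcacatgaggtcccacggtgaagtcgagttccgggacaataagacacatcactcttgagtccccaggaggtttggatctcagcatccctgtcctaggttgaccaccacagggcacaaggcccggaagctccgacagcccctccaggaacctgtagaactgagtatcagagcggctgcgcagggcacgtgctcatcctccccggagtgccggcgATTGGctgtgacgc
Psmb5: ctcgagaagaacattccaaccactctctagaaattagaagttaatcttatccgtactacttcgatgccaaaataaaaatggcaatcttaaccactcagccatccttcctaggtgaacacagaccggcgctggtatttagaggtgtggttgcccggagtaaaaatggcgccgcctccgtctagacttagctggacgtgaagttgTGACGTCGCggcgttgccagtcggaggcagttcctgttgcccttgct

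Of these windows those of Psmb5 and Psmc6, which lay on opposite sides in replicate 1, held the antioxidant core 1 time each, that of Psme3 held 1 CCAAT, and those of Psme4 and Psmd8 held neither. A window was at hand for 31 of the 37 tested members, 33 windows in all. The antioxidant core was in 5 of the 33 windows (15.2%), those of Psmb5, Psmb6, Psmc6, Psmd9 and Psmd12, beside 10.2% of all 32851 windows of this length. CCAAT was in 12 of 33 (36.4%) beside 33.8%. Both shares were near those of all windows. No printed window holds more than 1 match, so none overlap. A match is a description of the letters, and no binding was measured. The median G and C content of the members' windows was 57.6% (42.8% to 77.2%) against 52.4% in all windows.

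Probe sets of the same member did not always point the same way. Of the 84 probe sets 69 had a mean value of at least 3.99, that of the dimmest gene tested, and are called bright here. This limit is close to the floor of 3.84. More than 1 bright probe set was found for 18 members, of which only the brightest was tested. In LA replicate 1, the bright probe sets of 12 of these 18 members had the same sign and those of 6 differed, namely Psma6, Psmb1, Psmc2, Psmd11, Psmd13 and Psme4. Those of Psmd11 ranged from -0.17 to 1.69 over 6 probe sets, and those of Psmb1 from -0.09 to 1.78 over 3. The Psmd11 probe set at 1.69 was at the floor on 4 arrays, though another at 0.52 never was. The differing probe sets of Psmc2 (0.45), Psmd13 (-0.07) and Psme4 (0.24) were at the floor on 6, 4 and 8 arrays. Those of Psma6 and Psmb1 never were. For CLA against LA the sign was shared in 11 of 18 and differed in 7.

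In the authors' deposited table of ratios, pooled over both times, the direction of the ratio is not stated. Across the genes tested its log10 ratio correlated with CLA minus LA at r = 0.914, where genes are not independent and the arrays are the same, so a ratio above 1 was read as higher with CLA. The authors' deposited table listed a p under 0.05 for 7 members (2 with a ratio above 1 and 5 below), beside 26.5% of all genes, and 17 of the 37 ratios were above 1. The lowest ratio in the authors' deposited table was 0.378 for Psme4 (p = 0.0139), followed by 0.505 for Psmc6 (p = 0.0213). Psmb4 (1.26, p = 0.0386) and Psmd13 (1.34, p = 0.0431) were the members above 1 with a p under 0.05 in the authors' deposited table, where Psmd3 had 1.59 (p = 0.0959), Psmd8 1.47 (p = 0.167) and Psmb5 1.40 (p = 0.0532). After Benjamini-Hochberg adjustment of the p-values of the authors' deposited table over all genes tested, 0 members were left.

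Other genes of the pathway were taken from lists written for this comparison. None of them was called in any of the 6 comparisons by limma. At an unadjusted p under 0.05, LA replicate 1 held 1 of 5 assembly chaperones, 3 of 13 partners, 3 of 7 regulators, 0 of 3 inducible subunits and Uba6, beside 32.9% of all genes. Of the assembly chaperones 5 of 6 were tested (Psmg1 to Psmg4 and Pomp), of the proteasome partners 13 of 15, of the regulators of proteasome genes 7 of 8, and of the genes for ubiquitin and its activating enzymes only Uba6. In CLA against LA the medians were 0.30 for the chaperones (3 higher, 2 lower), -0.08 for the partners (6 higher, 7 lower) and -0.01 for the regulators (3 higher, 4 lower). There Uba6 had the largest difference of the listed genes, -2.36 (SE 0.71, unadjusted p = 0.00629, adjusted p = 0.457 in limma), and with the replicate number as a block -0.76 (interval -1.5 to -0.02, unadjusted p = 0.0452, adjusted p = 1), with both CLA arrays at the floor. In LA replicate 1 Nfe2l1, which encodes the NRF1 that drives proteasome genes when the proteasome is blocked, differed by 1.30 (SE 0.21, adjusted p = 0.0612 in limma). There Ecpas, an adaptor that binds the proteasome, was at -1.98 (adjusted p = 0.0554 in limma), Uchl5, a deubiquitinase of the cap, at -1.82 (0.0925) and Uba6, a ubiquitin-activating enzyme, at -2.13 (0.0602). Of the 13 partners 5 were higher in LA replicate 1 and 8 lower (median -0.33), with Ubqln4 at 1.13 among the higher ones. Of the 7 regulators 4 were higher in LA replicate 1 and 3 lower (median 0), among them Nploc4 at 1.25 and Ngly1 at -0.92. In CLA against LA Nfe2l1 was at 0.82 (adjusted p = 0.457 in limma), and with the replicate number as a block at -0.16 (interval -0.68 to 0.36). The inducible subunits Psmb8, Psmb9 and Psmb10 replace the catalytic subunits in the immunoproteasome. They were all lower at 12 h than at 8 h of LA, by -0.82, -0.46 and -0.60. None passed the test without the replicate block (adjusted p = 1 each in limma). With the number as a block, 1 of the 3 had an unadjusted p under 0.05, beside 457 of 10916 genes. The lowest adjusted p of the 3 was then 0.791 in limma.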

How the data were processed

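Total RNA of 10 cultures was labelled with biotin and read on Affymetrix arrays, per the labels' protocols. The deposited table holds 1 intensity per probe set and array on a linear scale, with 22.5% of values at or below 0. The software and the scaling between arrays are not given in the sources used here. A second deposited table holds the authors' ratio and fold change per probe set over both times, its log10, an error score of it and a p-value. Its error model is not given in the sources used here. Of 45101 probe sets, 64 controls were set aside, and GEO's platform annotation, updated through RefSeq identifiers, gave 34945 a single symbol, 932 several and 9160 none. The intensities were quantile normalized, raised to a floor of 14.3 (the absolute value of the 2nd percentile of all deposited intensities), and put on the log2 scale. The brightest probe set stood for a gene, and the dimmest 40% of genes were left out. limma (version 3.58.1 in R 4.3.3) was fitted with a variance trend over all 10916 genes tested, two-sided, with Benjamini-Hochberg adjustment and a threshold of 0.05. The fits were tested on simulated data, and the number of arrays limits the precision.

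The samples were grouped by their titles. The comparisons were CLA against LA over both times, at 8 h, at 12 h and as an interaction, LA at 12 h against 8 h, and LA replicate 1 against replicates 2 to 4. The replicate numbers pair the LA arrays: deviations from the group mean correlated at 0.855, 0.779, 0.503 and 0.553 between arrays of the same number, and at 0.283 at most between others, over genes. Full values were given for members that passed a test, the 2 largest differences each way in each comparison, the catalytic subunits and the widest range in each class, and every other member was named. The members, the lists and the comparisons were chosen with earlier results of these data known. Alternatives changed the scaling, the floor, the filter, the choice of probe set or the variance prior, added the replicate number as a block, or left out 1 array. The counts and signs of members and the single members of the replicate 1 comparison under these alternatives were added after seeing the data.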

Additional observations from a re-analysis of the deposited data

Results flagged for a closer look

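In 3 of the 74 groups of 4 LA arrays looked at for a single distant array, 1 array lay further from the rest than Dixon's 95% limit allows. Chance flags about 1 in 20 groups. Psme4 read 6.40 in LA replicate 1 at 8 h, against 8.52 to 8.88 on the other 3 arrays. Psmc6 read 7.51 in LA replicate 1 at 12 h, against 9.14 to 9.45. Psmd2, a scaffold of the 19S cap, read 9.59 in LA replicate 4 at 8 h, against 10.05 to 10.13. Without the first of these arrays the adjusted p of Psme4 in LA replicate 1 was 0.056 in limma, and the cause of its low value was not tested.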

How the results depend on the processing

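No alternative called a proteasome member in the comparisons of CLA with LA, in the interaction or between 8 h and 12 h. In LA replicate 1 the number of members called was 1, and it ranged from 0 (no variance trend; mean of all probe sets) to 11 (each array as 1 unit), with 5 on the values as deposited, 4 with centred arrays and 2 with the floor at 0.5 or 2 times its height. Over all genes 927 were called there (654 higher, 273 lower), 1634 as deposited (24 and 1610), 1466 with centred arrays (771 and 695), 1533 with the doubled floor (1236 and 297), 2037 without a filter (1750 and 287), 4013 with each array as 1 unit and 0 without a variance trend. The halved floor gave 371 higher and 964 lower. For CLA against LA over both times, at 8 h, at 12 h and as an interaction, all genes called numbered 28, 273, 100 and 279 with the doubled floor, 51, 548, 361 and 739 without a filter (1 between the times), and 10, 38, 7 and 1 with the mean of all probe sets. The members' median as deposited was -0.10 over both times, -0.18 at 12 h and -0.47 in LA replicate 1. With centred arrays it was 0.34, 0.48 at 8 h, 0.24 at 12 h and 0.47 in LA replicate 1, and with the mean of probe sets 0.07 at 12 h. In CLA against LA 7 members changed sign as deposited, 10 with centred arrays and 26 of 37 with the replicate block. Of the 12 members given in full, those were Psmc4 as deposited (-0.02), Psma1 (0.15), Psma5 (0.19), Psmb2 (0.10) and Psmc3 (0.20) with centred arrays, and with the block Psma1 (0.21), Psma5 (0.22), Psmb6 (-0.08), Psmc4 (-0.14), Psmc6 (0.09), Psmd3 (-0.13), Psmd8 (-0.18) and Psme4 (0.08). The block changed no call. Psma5 also turned with the mean of probe sets (0.01) and Psmc3 in the authors' deposited table (0.01). Between the times 5 members turned with centred arrays, of these 12 only Psmc4 (-0.05), and with the mean of probe sets Psmc4 (-0.14) and Psmc6 (0.07) did. Leaving out 1 array gave 0 to 23, 0 to 193, 0 to 74 and 0 to 51 genes called in the comparisons with CLA, each highest without LA replicate 1 at 8 h. In LA replicate 1 it gave 0 to 1158, with 0 without LA replicate 3 or 4 at 8 h or 2 or 4 at 12 h and 571 without LA replicate 1 at 8 h, and a members' median of -0.03 to 0.12. Among these 12, the ranges of those that turned were -0.25 to 0.04 (Psma5), -0.28 to 0.16 (Psmc3) and -0.04 to 0.44 (Psmc4) with CLA. Between the times they were -0.14 to 0.09 (Psmb6), -0.26 to 0.03 (Psmb7), -0.13 to 0.16 (Psmc4), -0.35 to 0.40 (Psmc6) and -0.34 to 0.69 (Psme4). The cause of these shifts was not tested. With 1 CLA array at each time, both numbered 1, CLA and the number can be separated only against LA replicate 1, and dim probe sets near the floor understate differences.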
